A study of Mus musculus with 11 samples.

Results

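Tumour cells that had grown back after loss of their oncogene were compared with the tumour cells that persist while the tumour is gone. Members of this comparison are the 4 arrays titled as recurrent tumour and the 3 arrays titled as residual lesion, 7 of the 11 arrays of the series, and all genes with a name were tested. The other 4 arrays, of primary tumour cells, enter as a level beside the comparison and share in the estimate of the spread. All cells have the genotype MMTV-rtTA and TetO-Wnt1, in which a mammary promoter drives the doxycycline-dependent activator and the activator drives Wnt1, a secreted growth signal of the Wnt pathway. They were labelled with H2B-eGFP, a green fluorescent histone, and grown orthotopically in female nu/nu mice, which lack a thymus and so most T cells, and the titles give them as positive for the fluorescent protein. Primary tumours are labelled untreated and grew on doxycycline. Residual lesions and recurrent tumours both had Wnt1 inhibition by doxycycline withdrawal, the residual lesions being taken at 28 days and the recurrent tumours at a time the labels do not give. The labels give neither ages nor whether each array is a separate animal, so the p-values reflect only how these samples differ among themselves, and part of that may be technical.

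Withdrawal of an oncogene on which a tumour depends usually makes most tumour cells die or stop dividing. A small population can persist in a resting state as minimal residual disease, and a tumour that returns from it must enter the cell cycle again. Exit from rest runs through growth factor receptors and the RAS-MAPK cascade to cyclin D1, through the E2F factors to the genes of DNA replication, and through the MuvB complex with B-Myb and FoxM1 to the genes of mitosis. Mitotic promoters typically carry CCAAT boxes, bound by NF-Y, and a cell cycle homology region (CHR) that MuvB contacts, while replication genes typically carry E2F sites.

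The promoters below are shown because their genes rose together in recurrent cells; they are those of the 5 mitosis and 3 replication genes with the largest called rise for which a promoter was found. Each line holds the 150 bases before the annotated start, 5′ to 3′ on the gene's strand, from RefSeq. Capitals mark the motifs searched for on both strands: the CHR elements TTTGAA and TTCGAA, the CCAAT box, and the E2F sites TTTCCCGC, TTTGGCGC and TTTCGCGC, of which the last 2 share letters and can overlap.
Anln (GRCm38.p6, chr9:22389207-22389356, minus strand): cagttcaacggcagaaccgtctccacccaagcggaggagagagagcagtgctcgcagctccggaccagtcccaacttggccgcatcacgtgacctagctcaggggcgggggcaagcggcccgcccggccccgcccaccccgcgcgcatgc
Top2a (GRCm38.p6, chr11:99024190-99024339, minus strand): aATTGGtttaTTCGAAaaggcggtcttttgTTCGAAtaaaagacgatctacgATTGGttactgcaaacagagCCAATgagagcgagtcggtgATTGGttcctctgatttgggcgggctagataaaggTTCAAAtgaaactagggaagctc
Ube2c (GRCm38.p6, chr2:164769779-164769928, plus strand): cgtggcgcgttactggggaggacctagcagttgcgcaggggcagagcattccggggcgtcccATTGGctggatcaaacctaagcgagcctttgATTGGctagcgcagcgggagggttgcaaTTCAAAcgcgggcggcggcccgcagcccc
Kif23 (GRCm38.p6, chr9:61946800-61946949, minus strand): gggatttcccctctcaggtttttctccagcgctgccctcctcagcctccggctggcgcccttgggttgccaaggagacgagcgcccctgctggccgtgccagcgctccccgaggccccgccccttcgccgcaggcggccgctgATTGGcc
Ccnb2 (GRCm38.p6, chr9:70421555-70421704, minus strand): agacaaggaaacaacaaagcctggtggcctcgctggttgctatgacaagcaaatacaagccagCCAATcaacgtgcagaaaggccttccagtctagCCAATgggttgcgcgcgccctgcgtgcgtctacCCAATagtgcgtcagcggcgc
Mcm6 (GRCm38.p6, chr1:128359706-128359855, minus strand): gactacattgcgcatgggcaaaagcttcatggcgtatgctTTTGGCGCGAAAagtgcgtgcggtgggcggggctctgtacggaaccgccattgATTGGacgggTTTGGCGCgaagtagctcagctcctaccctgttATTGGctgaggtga
Uhrf1 (GRCm38.p6, chr17:56303187-56303336, plus strand): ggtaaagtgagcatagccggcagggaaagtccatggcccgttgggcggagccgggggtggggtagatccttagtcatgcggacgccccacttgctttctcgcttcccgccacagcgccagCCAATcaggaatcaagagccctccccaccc
Rrm2 (GRCm38.p6, chr12:24708104-24708253, plus strand): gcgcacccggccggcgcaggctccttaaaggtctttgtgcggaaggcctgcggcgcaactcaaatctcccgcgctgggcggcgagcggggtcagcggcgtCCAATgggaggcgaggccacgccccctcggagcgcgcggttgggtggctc
Top2a, which encodes the topoisomerase that untangles chromosomes, held 3 CHR elements and 4 CCAAT boxes in this window, and Ube2c, an E2 enzyme that works with the anaphase-promoting complex, held 1 and 2. Ccnb2, cyclin B2, held 3 CCAAT boxes and no CHR element, Kif23 held 1 CCAAT box, and Anln held no motif. Mcm6, a subunit of the replicative helicase, held 3 E2F matches, 2 of them overlapping, and 2 CCAAT boxes, while Uhrf1 and Rrm2 each held 1 CCAAT box and no E2F match.

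The table held log2 signals, 1 per gene and array, and 23835 named genes were tested. Array medians were 4.38 to 4.41 for residual and 4.33 to 4.38 for recurrent arrays. Interquartile ranges were 3.525 to 3.569 on residual and 3.674 to 3.74 on recurrent arrays, so the residual arrays had the narrower spread. Pearson's r across genes, which are not independent replicates, was 0.951 to 0.966 between recurrent and residual arrays. It was 0.972 to 0.977 within the residual and 0.968 to 0.980 within the recurrent group. The 1066 olfactory receptor genes, a class not known to be used by mammary cells, serve as a background: their 95th percentile was 4.34 to 4.38 on residual and 4.03 to 4.09 on recurrent arrays. A change that starts or ends below these levels is measured from background, and its size is uncertain. Wnt1 read 3.23, 3.04 and 3.10 on the residual arrays and 2.89, 3.02, 3.05 and 3.26 on the recurrent arrays, all in the background range (adjusted p = 0.823). Since it was as low in primary cells (3.04 ± 0.04, SD, n = 4), where the transgene should be on, this probe set checks nothing about the oncogene. These are bulk samples, in which fewer cells of a type and less RNA per cell cannot be told apart.

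Recurrent cells had higher levels of nearly every measured gene of mitosis, of most replication genes and of the cyclin D1 gene than residual cells, together with MAPK target genes, ribosome assembly genes and some genes of glycolysis. Genes with lower levels included the iron exporter Slc40a1, keratin 14, complement regulators and a set of elastic fibre and matricellular genes. Of 22 fibroblast markers 2 were lower (9.09%, against 2.19% of all genes tested) and none higher. Postn, the matrix protein periostin, was not called. In limma, with Benjamini-Hochberg adjustment over all named genes, 1377 genes were called at an adjusted p under 0.05, 5.78% of those tested. Of these, 854 (3.58%) were higher and 523 (2.19%) lower in recurrent cells, and 443 and 265 (1.86% and 1.11%) differed at least 2-fold. For 3693 genes (15.5%) the lowest array of one group lay above the highest of the other, with recurrent higher for 1949 (8.18%) and lower for 1744 (7.32%). The median difference over all genes was -0.03, and 10852 of 23835 differences were above 0. Genes of a list are read on the same arrays, so the signs within a list are not independent. From the same fit, 430 genes (1.8%) were called between recurrent and primary cells and 2960 (12.4%) between residual and primary cells; these comparisons share arrays with the one described here, so their values are only set side by side. Calls near the threshold depended on single arrays. Of 160 called genes named in the text, 95 kept the call whichever of the 11 arrays was left out of the fit, and 65, with adjusted p of 0.0119 and above, lost it without at least 1 residual array. Where a call of such a gene is given, the highest adjusted p from limma with 1 array left out is given once. Calls depended on the primary arrays as well, which share in the estimate of the spread. With only the 7 compared arrays in the fit, 593 of the 1377 calls were kept, and 92 of the 160 named ones. The lists depended on single arrays too: of 65 list counts above 0, 48 moved by over 1.5 times when 1 array was left out, 44 of them counts of 5 or fewer. Each count of calls in a list below is to be set against the shares of all genes tested, 3.58% higher and 2.19% lower. Each count at an unadjusted p under 0.05 in limma is to be set against 2437 higher and 2268 lower of all 23835 genes. No list was tested against these shares.

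**Figure D1:**
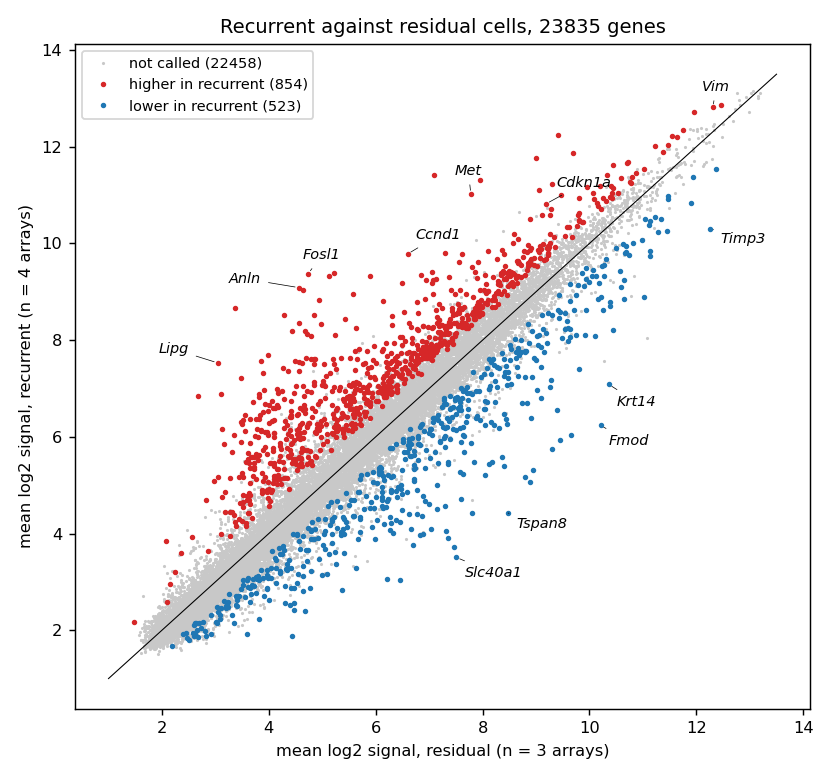
Mean log2 signal of each of 23835 genes on the 3 residual arrays (x axis) and the 4 recurrent arrays (y axis), with the 854 genes called higher in recurrent cells in red, the 523 called lower in blue, and equality as a line. Fosl1, Anln and Lipg rise from residual means near or within background, while the falls of Krt14, Fmod and Timp3 start above 10.

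The 15 largest called rises without overlap were those of H2bc7, Fosl1, Anln, Lipg, Il1rl1, H2bc15, Top2a, Ube2c, H2ac4, Rgs16, Ccna2, Kif23, Ccnb2, H3c10 and Birc5, from 5.30 to 3.74 on the log2 scale. H2bc7, H2bc15, H2ac4 and H3c10 encode replication-dependent histones, whose near-identical copies make the assignment to 1 gene uncertain. Anln (a scaffold of the cleavage furrow), Top2a, Ube2c, Ccna2 (cyclin A2), Kif23 (a kinesin of the central spindle), Ccnb2 and Birc5 (survivin, of the chromosomal passenger complex) act in mitosis. Fosl1, an AP-1 factor induced by MAPK signalling, read 4.74, 5.23 and 4.24 on the residual arrays and 9.95, 9.46, 9.12 and 8.97 on the recurrent arrays. That is a 24.9-fold rise (log2 difference 4.64, SE 0.26, adjusted p = 3.37e-06), and the recurrent mean of 9.38 equals the primary mean. Lipg, endothelial lipase, which cleaves phospholipids of lipoproteins, went from 2.97, 2.76 and 3.39, inside the background range, to 6.87, 6.71, 8.16 and 8.38 (log2 difference 4.49, SE 0.37, adjusted p = 3.25e-05). Recurrent 3 and 4 were the higher pair for Lipg. Rgs16, which shortens G-protein signalling, rose by 4.16 (SE 0.40, adjusted p = 0.000108).

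The 15 largest called falls were those of Tspan8, Slc40a1, Fmod, Adamts16, Scn7a, Serping1, Hs3st1, Fam180a, Sprr1a, Cyp1b1, Hbq1a, Ppp2r2c, Tubb3, Krt14 and Tspan7, from -4.05 to -3.26. Slc40a1, ferroportin, the only known cellular iron exporter, read 7.21, 7.41 and 7.92 on the residual arrays and 3.14, 3.35, 3.37 and 4.16 on the recurrent arrays. It fell by 4.01 (SE 0.25, adjusted p = 5.1e-06), to a mean within background. Ppp2r2c, a regulatory subunit of protein phosphatase 2A, went from 6.68, 6.38 and 6.33 to 2.84, 3.19, 3.26 and 2.88, the same mean as in primary cells (log2 difference -3.42, SE 0.18, adjusted p = 2.7e-06). Hs3st1, which sulphates heparan sulphate, fell by 3.63 (SE 0.42, adjusted p = 0.000384), and Cyp1b1, a cytochrome P450 that oxidises oestrogens, by 3.52 (SE 0.55, adjusted p = 0.00348).

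Several of these falls were uneven between the recurrent arrays. Fam180a, a secreted protein of little known role, read 9.26, 9.99 and 9.71 on the residual arrays and 4.19, 6.91, 4.22 and 8.83 on the recurrent arrays (adjusted p = 0.0412), so that recurrent 4 stood near the residual level and recurrent 1 and 3 near the primary mean of 3.85. Its call held in only 1 of the 11 fits with 1 array left out (0.119 without residual 2). Adamts16, a matrix metalloprotease, read 2.96, 4.34, 5.86 and 7.10 on the recurrent arrays against 8.52 to 9.50 on the residual arrays (adjusted p = 0.0119, and 0.0507 without residual 1). The call of Hbq1a was lost without residual 3 (0.0734). For Tspan8, a tetraspanin of epithelial surfaces, recurrent 4 read 6.13 and the others 3.65 to 4.13, against 8.09 to 8.94 on the residual arrays (adjusted p = 0.000546).

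**Figure D2:**
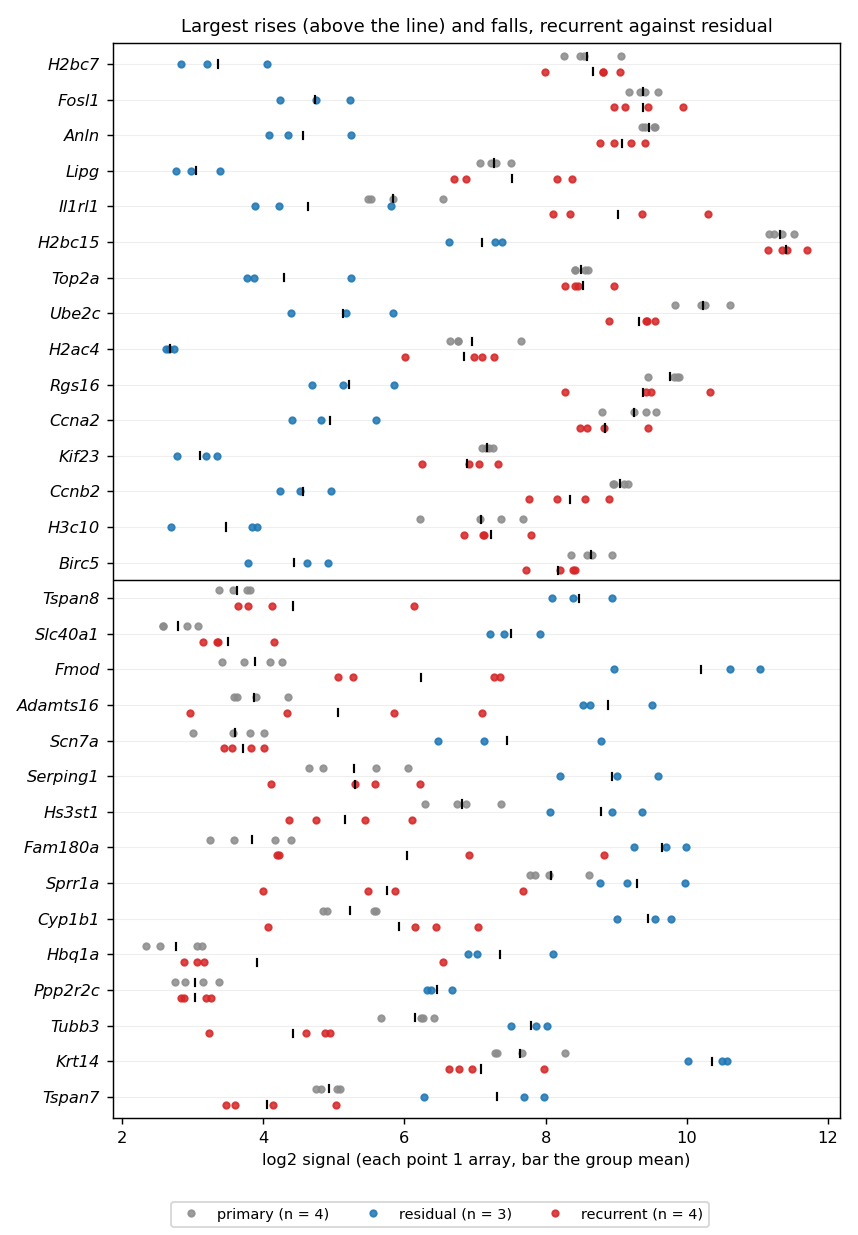
Log2 signal on each array for the 15 largest rises (above the line) and the 15 largest falls (below it), with 1 point per array, grey for primary (n = 4), blue for residual (n = 3) and red for recurrent (n = 4), and a bar at each group mean. For most rises the red and grey points lie together, while Il1rl1 lies above the primary arrays and the red points of Fam180a spread from 4.19 to 8.83.

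Of 51 measured genes of mitosis and G2/M, 50 rose, none fell and 1, Sgo1 (0.64, adjusted p = 0.142), a protector of centromere cohesion, did not pass. The median difference was 2.63, against -0.03 over all genes tested. Averaged over the list, the residual arrays read 4.27, 4.45 and 4.27 and the recurrent arrays 7.15, 6.79, 7.0 and 7.20, with no overlap. The primary arrays read 7.41 to 7.62. In residual cells 22 of the 51 members had a mean above their arrays' background level and in recurrent cells 50 did, so many of these rises start at background. Top2a read 3.86, 5.24 and 3.76 on the residual arrays and 8.97, 8.41, 8.28 and 8.46 on the recurrent arrays, an 18.9-fold difference (log2 difference 4.24, SE 0.31, adjusted p = 1.18e-05). Ube2c went from 5.17, 5.83 and 4.40 to 9.43, 9.42, 8.89 and 9.55 (adjusted p = 1.11e-05). Residual 2 was the highest residual array for Top2a, Ube2c, Anln, Ccna2, Ccnb2 and Birc5, though far below every recurrent array. Cdk1, the kinase that cyclins A2 and B2 activate, rose 5.71-fold (log2 difference 2.51, SE 0.16, adjusted p = 5.1e-06) from a well measured residual level of 6.84 ± 0.30 (SD, n = 3). Against primary cells, 2 of the 51 members were lower in recurrent cells and none higher, with a median difference of -0.47.

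Of 45 genes of S phase and DNA replication 31 rose and none fell, with a median difference of 1.08. Mcm6 read 4.33, 5.35 and 4.37 on the residual arrays and 8.20, 7.96, 8.42 and 8.21 on the recurrent arrays, an 11.4-fold difference (log2 difference 3.51, SE 0.23, adjusted p = 5.1e-06). Uhrf1, which carries DNA methylation through replication, rose by 3.07 (SE 0.22, adjusted p = 1.07e-05), Rrm2, a subunit of ribonucleotide reductase, by 2.67 and Gins2, part of the helicase complex, by 2.41. Among 20 genes of DNA repair and the checkpoints 8 rose and none fell, led by Exo1, an exonuclease of mismatch repair (1.88), Brca2, of homologous recombination (1.71), and Chek1, the checkpoint kinase (1.41). All 3 of these had residual means within background. The call of Chek1 was lost without residual 3 (0.0524), and the count of 8 fell to 5 without residual 2.

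Of 20 E2F factors, pocket proteins and MuvB subunits 6 rose and none fell. E2f8 and E2f7, atypical E2Fs that repress replication genes, rose by 2.60 and 1.37 (adjusted p = 0.00916 and 0.0137), and Foxm1, a factor of mitotic genes, read 5.65, 6.35 and 5.73 on the residual and 7.50, 7.51, 7.25 and 7.50 on the recurrent arrays (adjusted p = 0.00104). Rbl1, the pocket protein p107, rose by 1.19. E2f7 was not called without residual 2 (0.0558). Of 10 G1 cyclins and kinases 3 rose: Ccnd1, cyclin D1, Skp2, an F-box protein that marks p27 for degradation (1.33), and Cdk6, a partner kinase of cyclin D1 (0.97; adjusted p = 0.0516 without residual 2). Ccnd1 went from 5.81, 7.42 and 6.57 to 10.24, 9.71, 9.58 and 9.60, a 9.08-fold difference (SE 0.30 on the log2 scale, adjusted p = 9.56e-05).

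Cell cycle inhibitors and quiescence genes divided, with 3 of 28 higher (10.7%), 2 lower (7.14%) and a median of -0.23. Cdkn1a, the inhibitor p21 and a p53 target, read 9.23, 8.89 and 9.44 on the residual arrays and 10.81, 11.15, 10.47 and 10.84 on the recurrent arrays, a 3.10-fold rise (adjusted p = 0.000328). Both groups were well above background for this gene, and the arrays did not overlap. Cdkn2c, the inhibitor p18 of Cdk4 and Cdk6, rose by 1.00, and Nr2f1, an orphan nuclear receptor linked to dormancy in other tumours, by 1.03 (adjusted p = 0.0245 and 0.00193). Bhlhe41, a clock gene repressor also linked to dormancy, fell by 1.64 (SE 0.19, adjusted p = 0.000462), with all residual arrays at 9.63 to 9.95 and all recurrent arrays at 7.73 to 8.56. Among 22 p53 targets 3 rose and 3 fell: Fas, a death receptor, fell by 1.37 and Pmaip1, the BH3-only protein Noxa, by 0.98, while Gtse1, which holds p53 in check in G2, rose by 1.02. The calls of Cdkn2c and Pmaip1 were lost without residual 1 (0.094 and 0.11) and that of Gtse1 without residual 2 (0.0793).

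**Figure D3:**
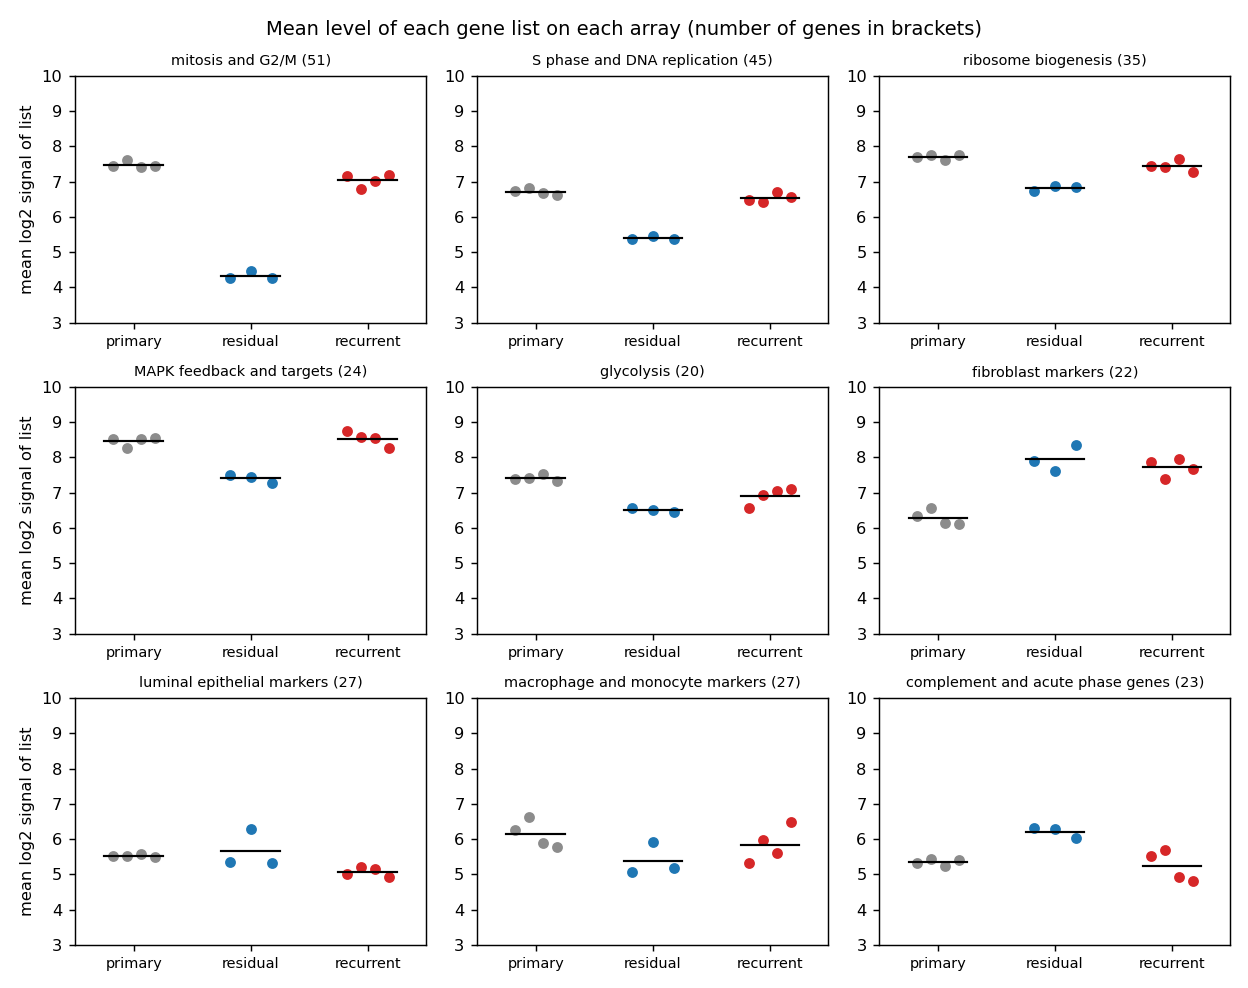
Mean log2 signal over the genes of 9 lists on each array, by group, with the group mean as a bar and the number of genes in brackets. Mitosis genes separate residual arrays (4.27 to 4.45) from recurrent arrays (6.79 to 7.20), fibroblast markers overlap between them (7.61 to 8.35 and 7.39 to 7.95), and luminal markers are highest on residual 2 (6.29).

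The promoters of the called cell cycle genes were described by their motifs. A promoter was found for 41 of the 50 mitosis genes and 23 of the 31 replication genes, and for 17724 of all genes tested. In the 250 bases before the start, 70.7% of the mitosis promoters and 65.2% of the replication promoters held a CCAAT box, against 36.0% of all promoters. Intervals for the first 2 shares (exact Clopper-Pearson, 95%) were 54.5% to 83.9% and 42.7% to 83.6% and cover counting error only. At least 2 CCAAT boxes were held by 46.3%, 26.1% and 11.7%. An E2F site was held by 30.4% of replication promoters (13.2% to 52.9%), 2.44% of mitosis promoters and 2.11% of all promoters. The CHR element was held by 29.3%, 21.7% and 15.7% of mitosis, replication and all promoters. Its intervals were 16.1% to 45.5% for mitosis and 7.46% to 43.7% for replication promoters. The second includes the share of all promoters, and the first begins just above it.

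MAPK feedback and target genes rose in 12 of 24 cases, with none lower and a median of 0.75. Beside Fosl1, these were Il1rl1, Ereg and Plaur, the Ets factors Etv5 and Etv4, the feedback inhibitors Spry2, Spry4, Dusp4, Dusp7 and Dusp10, and Phlda1. Etv4 read 4.70, 4.95 and 4.61 on the residual arrays and 6.33, 6.33, 6.33 and 6.11 on the recurrent arrays (log2 difference 1.52, SE 0.14, adjusted p = 6.69e-05). Its values on recurrent 1, 2 and 3 were identical (6.3295), so its spread may be understated. Etv5 rose by 2.67 but spread over 7.49 to 9.90 on the recurrent arrays (SE 0.55, adjusted p = 0.0162). Plaur, the urokinase receptor, rose by 2.30 (SE 0.25, adjusted p = 0.000289). Averaged over the list, the recurrent arrays read 8.75, 8.58, 8.54 and 8.26 and the residual arrays 7.49, 7.45 and 7.27. The calls of Spry4 (0.0702), Dusp4 (0.0656), Dusp7 (0.0807), Dusp10 (0.0554) and Phlda1 (0.0847) were each lost without 1 residual array. None of 22 immediate early genes was called in limma, and 4 were higher and 2 lower at an unadjusted p under 0.05 (2437 and 2268 of all 23835 genes tested). The smallest p among them belonged to Maff (0.67, adjusted p = 0.122) and Jund (-0.38, adjusted p = 0.130). Maff was called without residual 1 (0.0155) and Jund without recurrent 1 (0.0473).

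Il1rl1 encodes ST2, the receptor of interleukin 33. It read 3.88, 4.22 and 5.81 on the residual arrays and 8.34, 8.10, 10.31 and 9.36 on the recurrent arrays, a 21.0-fold difference (log2 difference 4.39, SE 0.56, adjusted p = 0.000786). The primary arrays lay between, at 5.48 to 6.55, and recurrent cells were above them as well (3.18, adjusted p = 0.00985). Its ligand Il33, named here after its values were seen, was well measured in residual (9.29 ± 0.90, n = 3) and recurrent cells (9.98 ± 0.37, n = 4; adjusted p = 0.304). Without residual 3 it was called higher in recurrent cells (0.0147).

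Of 30 receptor tyrosine kinases 4 rose (13.3%, against 3.58% of all genes tested) and none fell. Met, the receptor of hepatocyte growth factor, read 7.76, 8.17 and 7.41 on the residual arrays and 9.57, 9.63, 12.44 and 12.46 on the recurrent arrays, a 9.47-fold mean difference (log2 difference 3.24, SE 0.67, adjusted p = 0.0159). All recurrent arrays were above all residual arrays, and recurrent 3 and 4 were far above recurrent 1 and 2, whose values lay near the primary range of 8.81 to 9.31. The call of Met was lost without residual 1 (0.0509) and without residual 3 (0.0568). Ddr2, a collagen receptor, showed the same order, with 4.37, 5.41 and 4.77 against 7.02, 6.61, 8.36 and 8.47 (adjusted p = 0.00419), and here the primary arrays were as low as the residual arrays (3.79 to 4.85). Epha2, an ephrin receptor, rose by 1.51 and Igf1r, the receptor of insulin-like growth factors, by 0.83. Growth factor ligands moved both ways, with 3 of 30 higher and 3 lower, 10% each way. Ereg and Areg, ligands of the EGF receptor, rose by 2.69 and 1.72 and Csf1, the macrophage growth factor, by 1.47. Igf1 fell by 1.68, from 10.24, 10.26 and 10.65 to 8.11, 8.60, 8.22 and 9.89 (adjusted p = 0.0183), yet stayed above the primary arrays (6.25 to 6.84; 2.13, adjusted p = 0.00701). Pdgfc and Fgf2, ligands of the PDGF and FGF receptors, fell by 1.19 and 1.14. Without 1 residual array the calls of Igf1r (0.108), Igf1 (0.066), Pdgfc (0.0533) and Fgf2 (0.118) were lost, and the count of receptor kinases fell from 4 to as few as 2.

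Ribosome assembly genes rose in 16 of 35 cases with none lower and a median of 0.66, and all 35 differences were above 0. Nop58, a core protein of the small nucleolar particles that methylate ribosomal RNA, read 8.25, 8.55 and 8.48 on the residual and 9.68, 9.51, 9.55 and 9.41 on the recurrent arrays (log2 difference 1.11, SE 0.12, adjusted p = 0.000231). Dkc1, the pseudouridine synthase, rose by 1.23 and Nop16 by 1.15. Of 42 cytosolic ribosomal protein genes 11 rose and none fell, among them Rps15 (1.76), Rps24 (1.44), Rpl14 (1.26) and Rplp0 (1.17); many have processed copies, so their values are uncertain. The counts were 10 to 19 and 5 to 11 with 1 array left out, the lowest without residual 1 and residual 2, and the calls of Rps15 (0.0854), Rps24 (0.0959) and Rpl14 (0.122) were lost without 1 residual array.

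Metabolic lists held called members in both directions, and the recurrent arrays differed among themselves. Over all genes tested 3.58% were higher and 2.19% lower, so 62% of all calls were higher. Glycolysis genes rose in 5 of 20 cases, including Pfkl, a phosphofructokinase (1.41), Hk2, a hexokinase (1.20), Tpi1 (1.08) and Ldha, lactate dehydrogenase A (1.00). Hypoxia targets rose in 3 of 24 cases and fell in 2. Egln3, an oxygen-sensing prolyl hydroxylase, read 3.38, 5.64 and 5.54 on the residual arrays and 7.50, 8.45, 9.31 and 8.84 on the recurrent arrays (log2 difference 3.67, SE 0.53, adjusted p = 0.00191), whereas Car12, a carbonic anhydrase, fell by 2.21 (SE 0.21, adjusted p = 0.000118). The mean of the hypoxia list was 7.17 to 7.28 on the residual arrays and 7.11, 7.57, 8.27 and 8.14 on the recurrent arrays, so recurrent 1 lay just below the residual range and recurrent 3 and 4 were highest. The same held for cholesterol synthesis, with 6.11 to 6.23 against 5.99, 6.38, 7.06 and 7.11. Of its 24 genes 3 rose, among them Sqle, squalene epoxidase (1.19), and 2 fell, led by Ebp, a sterol isomerase (-1.09). Psat1, an enzyme of serine synthesis, went from 3.95, 4.69 and 3.87 to 6.55, 6.29, 7.14 and 6.45 (log2 difference 2.44, SE 0.23, adjusted p = 0.000101), and 4 of 22 genes of serine, folate and amino acid stress pathways rose. Only 1 of 47 genes of oxidative phosphorylation was called (2.13%), Uqcrfs1 of complex III (1.02). Of the 47, 44 had a difference above 0, with a median of 0.24. The part of the narrower spread of the residual arrays in such small differences was not tested. Of 30 lysosome and autophagy genes 4 fell and none rose, led by the cysteine protease Ctsf (-2.11, adjusted p = 0.00108). The calls of Hk2 (0.0514), Ldha (0.0568) and Sqle (0.0658) were lost without 1 residual array, and the glycolysis count fell to 3 without residual 3 and reached 7 without recurrent 1, that of cholesterol synthesis genes higher was 0 without residual 3 and 5 without recurrent 1, that of hypoxia targets higher was 8 without recurrent 1, that of serine, folate and amino acid stress genes to 2 without residual 2 and that of lysosome genes to 2 without residual 1.

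Wnt pathway genes were called in both directions: 2 of 24 targets and feedback genes rose and 2 fell. That is 8.33% each way, against 3.58% higher and 2.19% lower over all genes tested. Besides Ccnd1, Apcdd1, a membrane inhibitor of Wnt receptors, rose by 1.49. Nkd2, a Dishevelled inhibitor, read 9.65, 10.14 and 9.95 on the residual arrays and 7.42, 8.01, 8.23 and 8.79 on the recurrent arrays (log2 difference -1.80, SE 0.28, adjusted p = 0.00313), and the primary arrays read 3.65 to 4.27, so recurrent cells lay between. Fzd7, a Wnt receptor, fell by 1.40. Of 15 secreted antagonists and R-spondins 2 rose (13.3%) and 1 fell (6.67%). Dkk2, which binds and blocks the Lrp co-receptors, read 5.19, 6.05 and 5.50 on the residual arrays and 9.36, 8.28, 9.32 and 8.87 on the recurrent arrays, a 10.4-fold difference (log2 difference 3.38, SE 0.27, adjusted p = 2.29e-05), and was above the primary arrays too (6.72 to 7.10; 2.02, adjusted p = 0.00171). Sfrp1, a secreted decoy for Wnt ligands, fell by 1.92 (adjusted p = 0.0146) and was below primary cells as well. Of 19 Wnt ligands 1 (5.26%), Wnt9a, was called lower in limma (-1.27, adjusted p = 0.00482). Among 25 Notch pathway genes 3 (12%) fell and none rose. The ligand Jag1 fell by 2.13, Dtx4, a ubiquitin ligase of the pathway, by 1.28 and Lfng, a glycosyltransferase of Notch receptors, by 0.83. The calls of Apcdd1 (0.052), Sfrp1 (0.0583), Jag1 (0.0757) and Dtx4 (0.124) were lost without 1 residual array.

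TGF-beta and BMP pathway genes fell in 5 of 36 cases and rose in 2, with a median of -0.23. That is 13.9% lower and 5.56% higher, against 2.19% and 3.58% of all genes tested. Tgfb1 read 10.54, 10.62 and 10.60 on the residual arrays and 8.50, 9.49, 8.97 and 9.47 on the recurrent arrays (log2 difference -1.48, SE 0.21, adjusted p = 0.00188), near the primary mean of 9.14. Smad6, an inhibitory Smad that BMP signalling induces, fell by 1.54 and Chrdl1, a secreted BMP antagonist, by 1.81. Grem1, a further BMP antagonist, went the other way, from 4.13, 3.58 and 3.43 within background to 6.46, 6.25, 6.50 and 7.69 (log2 difference 3.01, SE 0.30, adjusted p = 0.000135), still below the primary arrays at 8.89 to 9.07 (-2.22, adjusted p = 0.00193). The count of 5 lower was 3 without residual 2, where Chrdl1 was not called (0.0527).

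Fibroblast markers fell in 2 of 22 cases (9.09%, against 2.19% of all genes tested) and rose in none, with a median of 0.01. Those that fell were Pi16, a marker of adventitial fibroblasts (-2.93, SE 0.39, adjusted p = 0.00117), and Fbln1, the matrix protein fibulin 1 (-1.59, adjusted p = 0.0464). Fbln1 was called in only 1 of the 11 fits with 1 array left out (0.156 without residual 3). The list mean was 7.91, 7.61 and 8.35 on the residual arrays and 7.87, 7.39, 7.95 and 7.66 on the recurrent arrays, which overlap, and 6.11 to 6.56 on the primary arrays, where 8 of the 22 were lower than in recurrent cells. The following matrix genes were named after their values were seen. Postn read 12.10, 11.93 and 12.52 on the residual arrays and 11.29, 10.85, 12.19 and 12.38 on the recurrent arrays, with overlap (-0.51, 95% confidence interval -1.70 to 0.69, adjusted p = 0.674), while its primary mean was 5.39 ± 1.14 (SD, n = 4). Ogn, the proteoglycan osteoglycin, read 8.36 to 10.65 on the residual and 8.92 to 10.45 on the recurrent arrays (0.36, 95% confidence interval -0.78 to 1.50, adjusted p = 0.768). These intervals leave room for differences of over 2-fold in either gene, so a p above the threshold does not show that the levels were alike.

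Other matrix genes did fall. Of 37 elastic fibre and matricellular genes 9 fell and 3 rose, and the median was -0.29. Comp, cartilage oligomeric matrix protein, went from 9.19, 8.30 and 9.77 to 7.63, 8.01, 6.29 and 5.30 (log2 difference -2.28, SE 0.56, adjusted p = 0.0371), still above the primary mean of 3.58. Smoc1, a calcium-binding matricellular protein, fell by 2.12 and Ccn5, of the CCN family, by 1.65 (adjusted p = 0.0384 and 0.00407), while Sparcl1, a relative of osteonectin, rose by 2.04 (adjusted p = 0.0216). Fbln5, fibulin 5 of elastic fibres, fell by 1.61 (adjusted p = 0.0193). The count of 9 lower was 3 without residual 1, and the calls of Comp (0.126), Smoc1 (0.125), Sparcl1 (0.0866) and Fbln5 (0.0738) were lost without 1 residual array. Among 30 proteoglycan and hyaluronan genes 4 fell and none rose: Fmod, fibromodulin, which organises collagen fibrils, and the heparan sulphate carriers Sdc1, Gpc1 and Sdc2. Fmod read 8.97, 11.04 and 10.61 on the residual arrays and 7.27, 7.35, 5.05 and 5.27 on the recurrent arrays (log2 difference -3.97, SE 0.62, adjusted p = 0.00347), with recurrent 3 and 4 the lower pair. The calls of Sdc1 (0.0662), Gpc1 (0.0876) and Sdc2 (0.13) were lost without 1 residual array, which left as few as 2 of the 4.

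Of 29 collagens 2 were higher and 2 lower, 6.90% each way, against 3.58% higher and 2.19% lower over all genes tested. Col6a3 (2.13) and Col18a1 (1.57) rose, Col11a1 (-2.90) and Col8a1 (-0.55) fell. Col6a3 overlapped, because residual 3 read 8.88 and recurrent 2 read 8.84. It was called in 1 and Col8a1 in 2 of the 11 fits with 1 array left out (0.144 and 0.102 without residual 2). Basement membrane genes and integrins had 4 of 29 higher and 4 lower, 13.8% each way. Lamb3, a chain of the laminin of epithelial anchorage, fell by 2.88 (SE 0.37, adjusted p = 0.000898), while Itga6, a laminin receptor subunit, rose by 1.90 (SE 0.31, adjusted p = 0.00402) and Nid1, nidogen, by 1.41, and Itga11, a receptor of fibrillar collagen, fell by 1.63. Of 34 proteases and inhibitors 3 rose and 3 fell, 8.82% each way. Mmp9, a gelatinase, read 4.23, 4.39 and 4.23 on the residual arrays, at background, and 5.98, 6.65, 5.95 and 6.17 on the recurrent arrays (log2 difference 1.90, SE 0.24, adjusted p = 0.000804), above the primary arrays too (4.43 to 5.49; 1.36, adjusted p = 0.0112). Timp3, an inhibitor of matrix proteases, went from 12.32, 12.27 and 12.17 to 11.40, 10.79, 9.74 and 9.30 (adjusted p = 0.0171). The calls of Nid1 (0.109), Itga11 (0.0821) and Timp3 (0.0564) were lost without 1 residual array, and the count of 4 rises among basement membrane genes was 2 without residual 1.

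**Figure D4:**
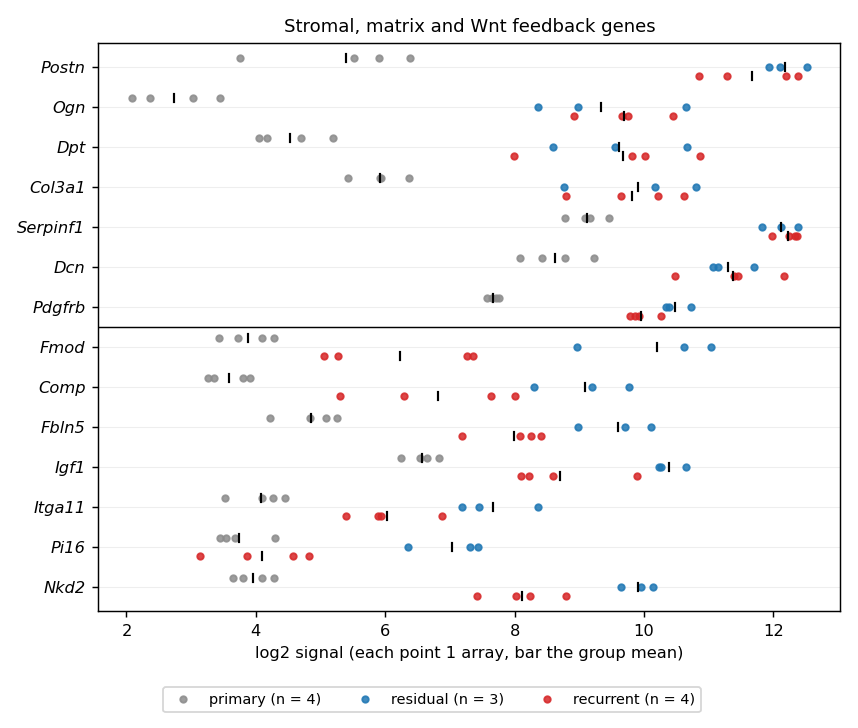
Log2 signal on each array for 7 stromal genes that were not called between recurrent and residual cells (above the line) and 7 matrix, growth factor and Wnt feedback genes that fell (below it), with grey for primary, blue for residual and red for recurrent arrays and a bar at each mean. Red and blue points of Postn and Ogn overlap far to the right of the grey ones, while for Nkd2 the red points (7.42 to 8.79) lie between the other groups.

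Epithelial markers were called in both directions. Of 27 luminal markers 3 rose (11.1%) and 4 fell (14.8%), with a median of -0.63. Most differences were negative: 5 of the 27 were above 0, against 10852 of 23835 over all genes tested. At an unadjusted p under 0.05 in limma, 12 were lower and 3 higher. Krt8 and Krt18, the keratins of simple epithelium, rose by 1.37 and 1.75 (adjusted p = 0.000796 and 0.0339), as did Areg. Cd24a, a surface protein of luminal cells, read 6.10, 8.08 and 6.42 on the residual arrays and 5.03, 4.36, 4.61 and 3.45 on the recurrent arrays (log2 difference -2.50, SE 0.48, adjusted p = 0.0116). It was also below the primary arrays (7.21 to 8.34; -3.56, adjusted p = 0.00203), as was Krt7, a ductal keratin, which fell by 2.10 to background (adjusted p = 0.0209). Aldh1a3, a retinaldehyde dehydrogenase of luminal progenitors, fell by 2.08. The call of Krt18 was lost without residual 3 (0.101). The luminal list mean was 5.36, 6.29 and 5.31 on the residual arrays, with residual 2 the highest, and 4.92 to 5.20 on the recurrent arrays. Epcam, a defining epithelial surface marker named here after its values were seen, read 6.29 on residual 2 and 3.47 and 4.10 on the others, and 3.32 to 3.45 on the recurrent arrays, within background (adjusted p = 0.189); it was at background in primary cells too (3.14 to 3.45).

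Krt14, a basal keratin, read 10.49, 10.57 and 10.02 on the residual arrays and 6.95, 7.98, 6.63 and 6.78 on the recurrent arrays, a fall of 3.28 (SE 0.33, adjusted p = 0.000146) to near the primary mean of 7.63. Of 25 basal and myoepithelial genes 2 fell, Krt14 and Lamb3, and 2 rose, Itga6 and Vim, vimentin (0.50, adjusted p = 0.0193). That is 8% each way, against 3.58% higher and 2.19% lower over all genes tested. Sprr1a, a cornified envelope protein and the only one of 24 squamous markers called (4.17%), fell by 3.54 (adjusted p = 0.00853). Milk protein genes fell in 3 of 18 cases (16.7%): Csn2, beta-casein, went from 5.04, 7.68 and 5.91 to background (2.62 to 3.49; adjusted p = 0.00293), and Muc15 and Ltf were called at levels near or within background. Residual 2 was the highest residual array for Csn2 too, and for Csn3, kappa-casein, it read 8.93 against 4.91 and 4.46, which the test did not call (adjusted p = 0.340). Without residual 2, the differences were -2.42 for Csn2, -1.90 for Cd24a, -1.46 for Krt7, -0.38 for Epcam, -0.18 for Csn3 and -0.16 for the luminal marker Wfdc2, against -1.21, -1.60 and -1.37 for the last 3 with it. The part of epithelial cells on residual 2 in these differences was not tested. Of 22 genes of epithelial-mesenchymal transition 2 rose (9.09%), Twist1 (0.73) and Vim, and 1 fell (4.55%), the cadherin Cdh2 (-1.40, adjusted p = 0.0071). The calls of Vim (0.0681), Twist1 (0.152) and Ltf (0.0604) were lost without 1 residual array.

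Complement and acute phase genes fell in 4 of 23 cases (17.4%, against 2.19% of all genes tested) and rose in none. The median was -0.74, and 22 of the 23 differences were below 0. Serping1, the C1 inhibitor, read 9.59, 8.20 and 9.01 on the residual arrays and 4.12, 5.31, 6.22 and 5.58 on the recurrent arrays (log2 difference -3.63, SE 0.49, adjusted p = 0.00124). Cd59a, which blocks the membrane attack complex, fell by 1.39, and Hp, the acute phase protein haptoglobin, was at 6.70, 9.21 and 4.58 on the residual arrays against 3.68 to 4.24 (adjusted p = 0.0498). Hp was called in 1 of the 11 fits with 1 array left out (0.112 without residual 1), and the count of 4 was 2 without primary 1. Chemokine and interleukin genes rose in 6 of 34 cases (17.6%) and fell in 2 (5.88%). Ccl5, Cxcl2, Cxcl10 and Ccl2, which draw T cells, neutrophils or monocytes, rose by 2.30, 2.19, 2.14 and 2.06. Cxcl10 was also above primary cells (2.14, adjusted p = 0.0269). Of 31 interferon-stimulated genes 4 rose (12.9%, against 3.58% of all genes tested) and none fell, with 29 differences above 0. Bst2, tetherin, read 5.72, 6.06 and 5.50 on the residual arrays and 6.51, 6.74, 8.79 and 8.01 on the recurrent arrays (adjusted p = 0.0489), and Irf1, a factor of the interferon response, rose by 1.41 (adjusted p = 0.0059). The list mean was 5.48 to 5.60 on the residual arrays and 5.84, 5.79, 6.78 and 6.42 on the recurrent arrays, highest on recurrent 3 and 4, as for antigen processing genes (7.46, 7.71, 8.47 and 8.50), of which Psmb9, an immunoproteasome subunit, was called (1.42). The calls of Cxcl10 (0.0692), Bst2 (0.136) and Psmb9 (0.073) were lost without 1 residual array, and the interferon count of 4 was 1 without residual 2 and 6 without recurrent 1, where 4 antigen processing genes were called.

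Among markers of blood, vessel, fat, nerve and muscle cells, 3 lists held calls, the endothelial, pericyte and nerve lists. None of 27 macrophage and monocyte markers passed in limma, with a median of 0.45 and 21 differences above 0. At an unadjusted p under 0.05 in limma, 7 of these markers were higher and none lower (2437 and 2268 of all 23835 genes tested). Their list mean was 5.07, 5.93 and 5.17 on the residual arrays and 5.31, 5.98, 5.60 and 6.49 on the recurrent arrays, highest on residual 2 and recurrent 4. Cd14, Tyrobp and Cx3cr1, the brightest, differed by 0.45, 1.27 and 0.13 (adjusted p = 0.253, 0.110 and 0.797), and C1qb by 1.19 (adjusted p = 0.0752). Without recurrent 1, 3 of the 27 were called higher, C1qb among them (0.0301). The part of these cells in the chemokine and interferon genes was not tested. Among 20 endothelial markers 1 rose in limma, 5% against 3.58% of all genes tested. It was Flt1, a VEGF receptor (2.42, adjusted p = 0.0324), which read 7.83, 7.97, 5.06 and 6.74 on the recurrent arrays. Flt1 was called in 2 of the 11 fits with 1 array left out (0.12 without residual 1). None of 20 lymphocyte, 15 neutrophil and mast cell, 11 adipocyte and 11 muscle and erythroid markers was called, and 4, 3, 4 and 4 of them had a recurrent mean above background. At an unadjusted p under 0.05 in limma, 4, 2, 1 and 1 of these were lower and none higher. S100a8, a neutrophil and epithelial alarmin, differed widely on the recurrent arrays, with 11.81, 10.51, 6.04 and 4.34 against 7.09 to 8.49 on the residual arrays (adjusted p = 0.889). Of 11 pericyte markers 1 fell, the peptidase Anpep (-1.04), and of 11 nerve and Schwann cell markers 3 fell, Tubb3, S100b and Ncam1, by 3.38, 2.25 and 1.30. That is 27.3% of the list, against 2.19% of all genes tested; its median was -0.62, 1 difference was above 0, and 7 members were lower at an unadjusted p under 0.05 in limma. The list mean was 6.05, 6.22 and 5.98 on the residual arrays and 5.17, 5.30, 5.22 and 5.36 on the recurrent arrays, without overlap, and 5.05 to 5.30 on the primary arrays. Without residual 2 only 1 of these markers was called. The calls of Anpep (0.0517), S100b (0.0659) and Ncam1 (0.0562) were lost without 1 residual array.

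**Figure D5:**
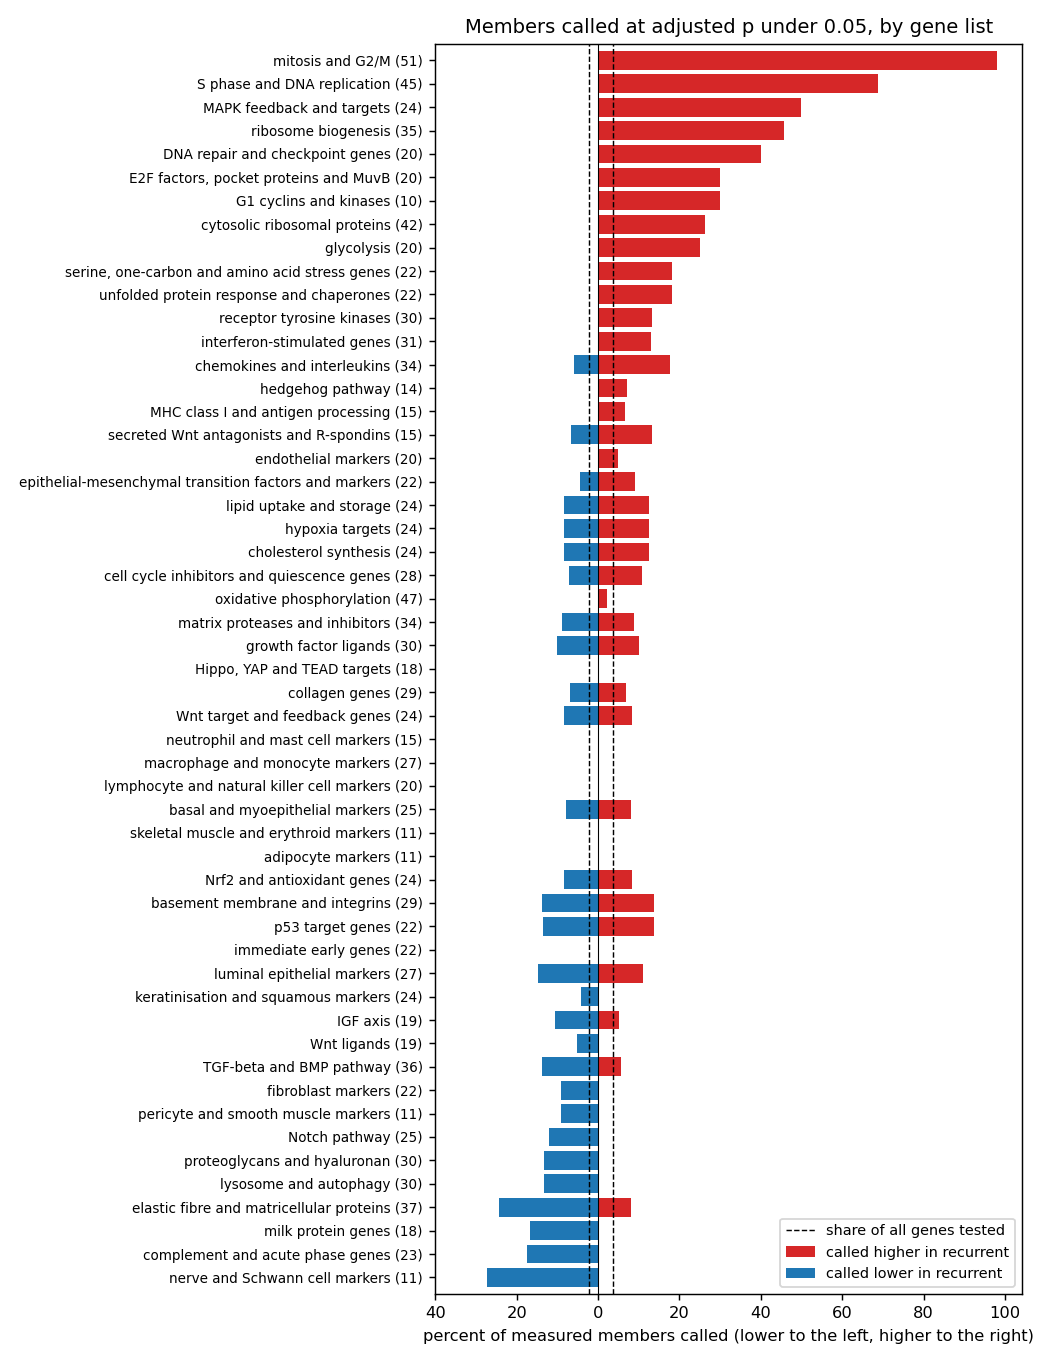
Percent of the measured genes of each list (number in brackets) called at an adjusted p under 0.05, higher in recurrent cells to the right in red and lower to the left in blue. Dashed lines mark the shares of all genes tested, 3.58% higher and 2.19% lower; mitosis genes reach 98.0% higher, while macrophage, lymphocyte, neutrophil and immediate early genes have no call.

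Single arrays stood above the rest of their own group for some genes, which are described with no test of the gap. The other group played no part in this choice. Hbq1a on recurrent 4 (6.54) lay below all residual arrays (6.91 to 8.11). Dynap was called higher in recurrent cells in limma (3.44, adjusted p = 0.0464, and 0.161 without residual 1). Acan differed by 2.04 in the same direction but was not called (adjusted p = 0.226). On residual 2 these were, by the gap to the rest of its group, Dynap, Csn3 and Wfdc2, a secreted protein of epithelia (9.34 against 5.85 and 5.57). On residual 3 they were Ecrg4, Chad and Acan, the last 2 of them cartilage matrix genes (Chad 10.98 against 7.24 and 5.17), and on residual 1 Mir697, Cfb and Snord13. On recurrent 3 they were Flrt2, an adhesion protein (8.78 against 2.53 to 3.15), Cdh5, VE-cadherin (10.13 against 4.66 to 5.09), and Tspan6 (7.22 against 2.83 to 3.32). Flt1 and Plvap, other endothelial genes, were not raised there (5.06 and 5.45). On recurrent 4 they were Lsm8, an RNA-binding protein (11.78 against 7.63 to 7.93), Thbs4 and Hbq1a, and on recurrent 1 Nrn1, Ptgfr and Cygb. On recurrent 2 the largest gaps were those of an immunoglobulin segment, Saa3, an acute phase protein (8.96 against 4.17 to 6.26), and a microRNA gene.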

How the data were processed

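Expression was measured on 11 microarrays, 1 per sample. The deposited log2 values were made by the authors with RMA in R 3.0.2, per the submitters' processing notes, as 1 value per probe set, and probe sets are keyed by Entrez Gene number; the probe annotation and its build are not given in the sources used here. RMA subtracts background and equalises the distributions of the arrays' probe signals, so a shift shared by most genes cannot be seen. The deposited values still differed in interquartile range between residual and recurrent arrays. Precision is limited by how few arrays there are. Of 24479 probe sets, 23281 had a platform symbol, 556 were named through the RefSeq table by gene number, 642 had no name and 2 duplicates were dropped, which left 23835 genes. Differences were tested with limma 3.58.1 in R 4.3.3, with 3 groups, 11 arrays and no covariate, two-sided, and Benjamini-Hochberg adjustment over all named genes. Groups and replicate numbers came from the sample titles. Replicate numbers were not used to pair the arrays, and the titles do not say whether they do.

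Genes were named by a rule: Wnt1; the 15 largest called rises and falls without overlap, leaving out predicted, clone-named and receptor-family genes; up to 4 called members of each list by size, or up to 2 by p where none was called; the 3 brightest members of lists of other cell types; and the 3 genes with the largest gap above their group for each of the 7 arrays. A few genes that the rule selects are not reported here. The comparison, the 53 gene lists (1312 of 1337 entries measured) and the rule were chosen with earlier results of these data known. Promoters are RefSeq's (GRCm38.p6), 1 per gene, at the annotated start farthest upstream, so a motif near another start of the gene would be missed. On simulated data for this contrast, with 200 of 23835 genes changed, limma recovered 61% of 2-fold and 100% of 4-fold changes with 14 false calls. The simulated noise was normal, with limma's own estimate of each gene's spread, and alike in all groups. These figures hold under the test's own assumptions and do not give its power or error rate on the real arrays. Alternatives covered the arrays in the fit, a block for the replicate number, scaling, dim genes, the estimate of the spread, unnamed probe sets, thresholds, each array left out and the promoter window.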

Additional observations from a re-analysis of the deposited data

Results flagged for a closer look

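In the recurrent group of 4 arrays, 1 array stood far from the other 3, by Dixon's criterion at the 95% level, for 15 of 193 genes examined; chance alone marks about 1 in 20 groups. Recurrent 4 was high for Hbq1a (6.54, next highest 3.16), Nid1 (9.10 and 7.55), Lsm8 (11.78 and 7.93), Thbs4 (7.65 and 3.85) and Gli3 (9.13 and 8.41), and low for Etv4 (6.11, next lowest 6.33). For Etv4 the other 3 values were identical, so a gap of any size would meet the criterion. Recurrent 3 was high for Flrt2 (8.78 and 3.15), Cdh5 (10.13 and 5.09) and Tspan6 (7.22 and 3.32), and low for Foxm1 (7.25 and 7.50). Recurrent 1 was high for Igf1r (7.68 and 7.15), Ptgfr (8.33 and 5.22) and Cygb (7.20 and 4.17), and low for Cfb (4.69 and 5.04). Recurrent 2 was low for Epcam (3.32 and 3.43), within background. Flrt2, Cdh5, Tspan6, Lsm8, Thbs4, Hbq1a, Ptgfr and Cygb had been picked for their gap above the group, so their distance is no separate finding.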

How the results depend on the processing

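The count of mitosis genes called higher was 50 in every fit with 1 array left out. Counts of all genes called higher and lower, 854 and 523, were 408 and 201 with only the 7 compared arrays, 360 and 161 at an adjusted p under 0.01, 443 and 265 at 2-fold or more, and 572 to 834 and 364 to 491 with 1 array left out, lowest without residual 2. Of the 1377 called genes, 593 were among those called with the 7 arrays alone. Scaling to 1 median and interquartile range gave 693 and 634 (52.2% higher, against 62.0%), and repeated quantile normalization 718 and 575. Fibroblast markers called lower, 2, were 1 with the 7 arrays, 1 at an adjusted p under 0.01, 4 after interquartile scaling and 1 to 2 with 1 array left out. Of the 160 named calls, 68 were lost with the 7 arrays alone, 12 after interquartile scaling, 10 after repeated quantile normalization and 15 with array weights. In the last 100 bases, an E2F site was held by 0.0% of mitosis, 13.0% of replication and 0.931% of all promoters, and a CHR element by 17.1%, 4.35% and 4.97%.

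Deviations of same-numbered residual and recurrent arrays from their group means had r = -0.0584, 0.0172 and 0.00923 across genes. For arrays of unlike number r lay between -0.0562 and 0.0839. This cannot settle whether the numbers pair the arrays, because deviations within so small a group are tied to one another. The titles do not say either. With the replicate number as a block, 553 genes were higher and 319 lower, and 36 of the 160 named calls were lost.

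Differences of some uncalled genes changed sign. Wnt1, at background, differed by 0.016 after repeated quantile normalization and by 0.020 after interquartile scaling. With 1 array left out, the differences ranged from -0.12 to 1.02 for Ogn, -0.077 to 0.35 for Cx3cr1, -0.69 to 1.80 for S100a8, -1.32 to 1.11 for Ecrg4, -0.54 to 1.54 for Flrt2, -0.54 to 0.93 for Tspan6, -0.033 to 1.30 for Thbs4, -1.85 to 0.35 for Ptgfr and -0.65 to 0.49 for Cygb. The end of opposite sign was reached without recurrent 3 for Flrt2 and Tspan6, without recurrent 4 for Thbs4 and without recurrent 1 for Cygb and S100a8. It was reached without residual 3 for Ecrg4, Ptgfr and Cx3cr1 and without residual 1 for Ogn. Flrt2, Tspan6, Thbs4, Cygb and Ecrg4 had been picked for their gap on the array named. The cause was not tested. With 3 and 4 arrays a group, changes under 2-fold are often missed, and levels near background have no reliable size.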

Other observations

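Further lists held up to 5 called genes each. Of 22 unfolded protein response and chaperone genes 4 (18.2%, against 3.58% of all genes tested) were higher in recurrent cells and none lower. The median difference was 0.17. The 4 were the heat shock genes Hspa1a and Hspa1b (1.63 and 1.42, adjusted p = 0.00244 and 0.00476), near-identical copies whose assignment is uncertain, and the mitochondrial chaperones Hspd1 and Hspe1 (0.58 and 0.59). Hspa1a read 8.34, 9.46 and 8.84 on the residual arrays and 10.56, 10.42, 10.74 and 10.31 on the recurrent arrays, without overlap. The calls of Hspd1 and Hspe1 were lost without 1 residual array (0.0912 and 0.1), and the count of 4 was 2 without residual 1.

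Of 24 Nrf2 and antioxidant genes 2 were higher and 2 lower, 8.33% each way. Higher were Mt2, a metallothionein, and Sod2, the mitochondrial superoxide dismutase (0.79 and 0.71). Lower were Sod3 and Gstm1, a glutathione transferase (-1.94 and -0.63). Sod3, the secreted superoxide dismutase, read 8.92, 8.11 and 8.18 on the residual arrays and 6.87, 6.66, 6.58 and 5.74 on the recurrent arrays (SE 0.27, adjusted p = 0.00139), and recurrent cells were also below the primary arrays (8.23 to 8.58; -1.93, adjusted p = 0.00224). The calls of Mt2 (0.148), Sod2 (0.121) and Gstm1 (0.1) were lost without 1 residual array. Of 24 genes of lipid uptake and storage 3 were higher (12.5%) and 2 lower (8.33%). Fabp5, a fatty acid carrier, rose by 1.71 from background, while Abcg1, a cholesterol exporter, fell by 1.23 and Vldlr, a lipoprotein receptor, by 0.89 within background (adjusted p = 0.0264, 0.0327 and 0.0164), and each call was lost without 1 residual array (0.101, 0.118 and 0.059). In the IGF axis 1 of 19 genes was higher, Igf1r, and 2 lower, Igf1 and Igfbp7, a secreted binding protein that went from 12.28, 12.42 and 12.39 to 11.23, 11.57, 11.46 and 11.88 (adjusted p = 0.00938). Gli3, a transcription factor of the hedgehog pathway, was the only 1 of its 14 genes called (0.99, adjusted p = 0.0256, and 0.0806 without residual 2). None of 18 Hippo, YAP and TEAD target genes was called at an adjusted p under 0.05 in limma, and 5 were higher and 2 lower at an unadjusted p under 0.05 (2437 and 2268 of all 23835 genes tested). Ptpn14 and Tead1 had the smallest p (0.59 and 0.54, adjusted p = 0.0788 and 0.111), and Tead1 was called without primary 2 (0.0209).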
